A study of Mus musculus with 12 samples.

Results

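The genes described here are those of the major histocompatibility complex (MHC) and of antigen presentation in mouse inguinal white adipose tissue (iWAT). They were chosen by name, as every gene whose symbol starts with H2- plus B2m, Tap1, Tap2, Tapbp, Cd74, Ciita, Nlrc5 and Erap1. This gave 35 of the 14159 genes in the table of normalized counts, 27 by symbol and 8 by name. Of these, 23 belong to the class I pathway, 10 to the class II pathway and 2 to neither. The neither group holds H2-T-ps, a pseudogene by its symbol but protein-coding in RefSeq, and H2-Ke6, an older symbol of a steroid dehydrogenase gene of the region. H2-T10, a transcribed pseudogene in RefSeq, is counted in class I by its symbol. A filter at a mean of 10 normalized counts was passed by 31 genes, including all 10 of class II and 19 of class I, and these were tested. The class I genes H2-Q7, H2-Q8, H2-M5 and H2-M11 fell under this filter. By RefSeq, 28 of the 35 genes lie between positions 33919478 and 37274485 of chromosome 17 (GRCm38.p6, the mm10 assembly).

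Whole iWAT was taken from 4 groups of C57BL/6 mice, with 3 biological replicates numbered 0 to 2 in each. Atf4AKO mice carried floxed Atf4 alleles and the Adipoq-Cre transgene, which deletes Atf4 in adipocytes, while their floxed littermates without Cre were the Atf4WT controls. Both genotypes were sampled at room temperature (RT) and after 24 h of cold exposure, so that the 4 groups are Atf4WT RT, Atf4AKO RT, Atf4WT cold and Atf4AKO cold. Other cells of the depot keep Atf4, and the age of the sequenced mice was not given in the sources used here. The study asked how loss of this stress response factor in adipocytes alters cold-induced browning, and the MHC genes were followed across the 4 groups to compare class I with class II.

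Class I molecules are carried by almost all nucleated cells. A heavy chain, such as H2-K1 or H2-D1, pairs with B2m and displays peptides from the cell interior to CD8 T cells. The peptides are cut by the proteasome, pumped into the endoplasmic reticulum by Tap1 and Tap2, trimmed by Erap1 and loaded with help from Tapbp, and Nlrc5 is a transcriptional activator of this set. Class II molecules are largely restricted to B cells, dendritic cells, macrophages and thymic epithelium, and display peptides from endocytosed protein to CD4 T cells. Their chains (H2-Aa, H2-Ab1, H2-Eb1) are escorted by the invariant chain Cd74, peptides are exchanged by H2-DM, H2-DM is restrained by H2-DO (H2-Oa and H2-Ob), and Ciita is the master activator. H2-DO is best known from B cells and some dendritic cells. In adipose tissue, class II genes are best known from resident macrophages and dendritic cells, and have also been described in adipocytes.

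The promoters of both classes are known to carry a conserved module whose last element is the Y box, and they are shown because the classes are compared on their RNA levels below. RefSeq windows (GRCm38.p6) of 250 bases before to 50 bases after the start site were given for 7 class II genes in 8 windows and for 16 class I genes in 18 windows. No window was given for H2-Ab1, Ciita, H2-L, H2-Q1, H2-Q8, H2-T10, H2-T24, Tap2 and Nlrc5, and the window of Cd74 was not used here. The motifs were the Y box CTGATTGG, an X box core GCAACAG, an interferon response core TTTCNNTTT and an NF-kappaB core GGGGATTCC, searched on both strands. A short X box stretch AGCAAC was added after the windows had been read. It shares its last 5 letters with the first 5 of the X box core. Below are the 180 bases before to 20 bases after the start site of 4 class II genes and of the principal class I heavy chains, on the strand of the gene, with every match in capitals. In the order printed, they come from chr17:34287804-34288003 (minus strand), chr17:34305687-34305886 (plus), chr17:34325495-34325694 (plus), chr17:34092199-34092398 (plus), chr17:34000314-34000513 (minus, 1 of its 2 windows) and chr17:35262914-35263113 (plus).
H2-Aa: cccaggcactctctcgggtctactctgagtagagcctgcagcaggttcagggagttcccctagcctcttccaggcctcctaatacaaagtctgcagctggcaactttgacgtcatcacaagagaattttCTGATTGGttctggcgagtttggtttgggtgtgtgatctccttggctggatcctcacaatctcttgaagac
H2-Eb1: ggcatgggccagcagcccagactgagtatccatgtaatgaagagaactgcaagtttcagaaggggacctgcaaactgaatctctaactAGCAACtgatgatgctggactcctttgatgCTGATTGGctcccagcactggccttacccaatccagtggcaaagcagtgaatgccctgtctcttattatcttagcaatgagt
H2-Eb2: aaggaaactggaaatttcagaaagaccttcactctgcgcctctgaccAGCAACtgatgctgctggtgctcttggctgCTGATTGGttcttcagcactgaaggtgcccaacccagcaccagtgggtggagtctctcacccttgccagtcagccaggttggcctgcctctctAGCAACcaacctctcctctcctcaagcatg
H2-Oa: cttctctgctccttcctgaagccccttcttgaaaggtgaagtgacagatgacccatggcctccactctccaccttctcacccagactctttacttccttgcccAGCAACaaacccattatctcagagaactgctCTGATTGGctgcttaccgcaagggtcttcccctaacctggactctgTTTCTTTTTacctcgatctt
H2-K1: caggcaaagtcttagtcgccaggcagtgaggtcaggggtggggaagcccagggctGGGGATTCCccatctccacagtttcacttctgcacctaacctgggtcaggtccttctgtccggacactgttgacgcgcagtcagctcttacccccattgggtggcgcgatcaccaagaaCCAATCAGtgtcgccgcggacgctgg
H2-D1: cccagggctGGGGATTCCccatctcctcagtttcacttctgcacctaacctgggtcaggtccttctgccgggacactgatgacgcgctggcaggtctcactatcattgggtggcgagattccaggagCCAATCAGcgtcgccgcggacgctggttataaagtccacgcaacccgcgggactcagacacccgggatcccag

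The letters CTGATTGG, searched as the Y box on both strands, were found in 4 of the 7 class II genes with a window (H2-Aa, H2-Eb1, H2-Eb2 and H2-Oa). They were also found in 8 of the 16 class I genes (H2-D1, H2-K1, H2-M9, H2-M11, H2-Q6, H2-Q7, H2-T23 and Tap1), against 4.1% of all 32851 windows. The match read CTGATTGG along the gene in each of the 4 class II windows and as its reverse complement CCAATCAG in the class I windows. In H2-K1 and H2-D1 the shorter letters attgg also lie upstream of it, on the strand of the gene, and are not marked. A match of letters does not show which promoter element it is, so the class I matches need not be the Y box of the module. The H2-Aa match lay at positions -51 to -44 from the start site, and the H2-D1 match at -53 to -46. The NF-kappaB core was found in 4 class I genes (H2-D1, H2-K1, H2-Q6 and H2-Q7) and in no class II window, against 0.25% of all windows. The interferon response core was found in 5 class I and 2 class II genes, against 10.6% of all windows. The short X box stretch was found in 2 class I genes and in 4 class II genes (H2-Eb1, H2-Eb2, H2-Oa and H2-Ob), against 14.8%, and the X box core in neither class, against 5.48%. These matches describe the letters of the windows, and no binding was measured.

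Between 25719476 and 29105147 reads per library were recovered from the normalized counts, and all values below are normalized counts unless another unit is given. Atf4, the targeted gene, read 7644, 7511 and 5756 in the Atf4WT cold libraries and 1578, 788 and 1179.8 in the Atf4AKO cold libraries, a log2 difference of -2.60 ± 0.22 (SE). At RT it read 5669, 4670.3 and 4107 in Atf4WT and 1594, 1469.6 and 1639 in Atf4AKO, so the genotype labels held in every library. All 12 adipocyte markers were listed, led by Fabp4 and Cfd. In the levels of other cell types 4 libraries stood apart from their group. Atf4WT RT replicate 2 was high in B cell markers, Atf4AKO cold replicate 1 and Atf4WT cold replicate 1 were low in macrophage and fibroblast markers, and Atf4WT cold replicate 0 was low in T cell markers. The counts below were also taken without each of them, and without Atf4WT RT replicate 2 and Atf4AKO cold replicate 1 together.

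Per kilobase of exon, class I RNA was far more abundant than class II RNA at RT. Exon lengths were taken from GENCODE M21 for 33 of the 35 genes. In Atf4WT iWAT at RT the mean levels per kilobase were 57621 for B2m, 34849 for H2-K1 and 25362 for H2-D1. Cd74 was the most abundant class II gene, at 10430.3 per kilobase, followed by H2-Aa at 6083, H2-Ab1 at 4579 and H2-Eb1 at 3238. The other class II genes were lower, with H2-DMb1 at 400.04, H2-DMa at 252, H2-Ob at 60.7, H2-Oa at 43.0, Ciita at 26.9 and H2-Eb2 at 9.38 per kilobase. The class I heavy chains outside H2-K and H2-D ranged from 2.94 (H2-M5) to 3803 (H2-Q10) per kilobase. Class I genes are close copies of one another and only uniquely mapped reads were counted, so the division of reads among them, and the level of each, is uncertain.

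After cold exposure, all 10 class II genes were lower in Atf4AKO than in Atf4WT iWAT, by 2.37- to 34.5-fold, while H2-K1, H2-D1 and B2m did not pass the test. In total 13 of the 31 tested genes were lower and 0 were higher, where a gene was called when its fold change was over 1.5 and its unadjusted limma p-value under 0.05. Over all 13404 tested genes, 6.04% were called lower and 0.358% higher in this comparison. In none of the 10 class II genes did the 3 Atf4AKO cold libraries overlap the 3 Atf4WT cold libraries, and 7.84% of all tested genes were lower without overlap. The median log2 difference was -1.50 over class II, -0.07 over the 19 class I genes tested, and 0.05 over all tested genes.

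The RNAs of the peptide-binding chains of class II were lower together. H2-Aa, the alpha chain of the I-A molecule, read 5164, 6470.2 and 10169.7 in the Atf4WT cold libraries and 3651, 1661 and 3349 in the Atf4AKO cold libraries, a log2 difference of -1.35 ± 0.33 (SE, n = 3 per group). Its highest Atf4AKO library lay below its lowest Atf4WT library, and Atf4AKO replicate 1 was the lowest of all. H2-Ab1, the partner beta chain, read 3572, 4556 and 7562 against 2779, 1204 and 2267, a difference of -1.34 ± 0.33. H2-Eb1, which encodes the beta chain of I-E, read 3754, 4973 and 7316 against 2629.7, 1379 and 2151, a difference of -1.38 ± 0.27. No gene for an I-E alpha chain was among the 35 genes, and the sequencing did not measure whether an I-E molecule was made. The adjusted p-values of these chains, from limma with Benjamini-Hochberg adjustment over all tested genes, were 0.0811 for H2-Aa, 0.0842 for H2-Ab1 and 0.0648 for H2-Eb1.

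The chaperones and the activator of class II were lower as well. Cd74 read 10137, 14594 and 21963 in Atf4WT and 6561, 2841 and 5895 in Atf4AKO iWAT after cold, and was 3.09-fold lower (log2 -1.63 ± 0.34). The genotypes again did not overlap. H2-DMa, a chain of the peptide exchange factor, read 522, 726 and 1089.6 against 391, 194 and 352 (log2 -1.31 ± 0.32). H2-DMb1, its partner chain, read 504, 495 and 864 against 387, 144 and 289 (log2 -1.24 ± 0.35). Ciita read 235, 345 and 785 against 135, 49.9 and 91.3, 4.65-fold lower (log2 -2.22 ± 0.52). The 3 Atf4AKO libraries of Ciita were the lowest 3 after cold.

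The largest differences among the 31 genes were those of H2-Oa, H2-Ob and H2-Eb2. H2-Oa read 135, 287 and 412 in the Atf4WT cold libraries and 23.4, 10.2 and 3.22 in the Atf4AKO cold libraries (log2 -4.59 ± 0.88). H2-Ob, its partner in H2-DO, read 488, 926 and 1641 against 77.6, 23.8 and 35.5 (log2 -4.45 ± 0.89). H2-Eb2, a second E beta gene, read 88.3, 176 and 414 against 10.6, 2.27 and 3.22 (log2 -5.11 ± 1.18). These 3 genes were low at RT and in Atf4AKO iWAT, where single libraries held a few reads, so their fold changes on the log2(normalized count + 1) scale understate a difference from such low levels. Their adjusted limma p-values were 0.0648, 0.0648 and 0.0735.

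**Figure D1:**
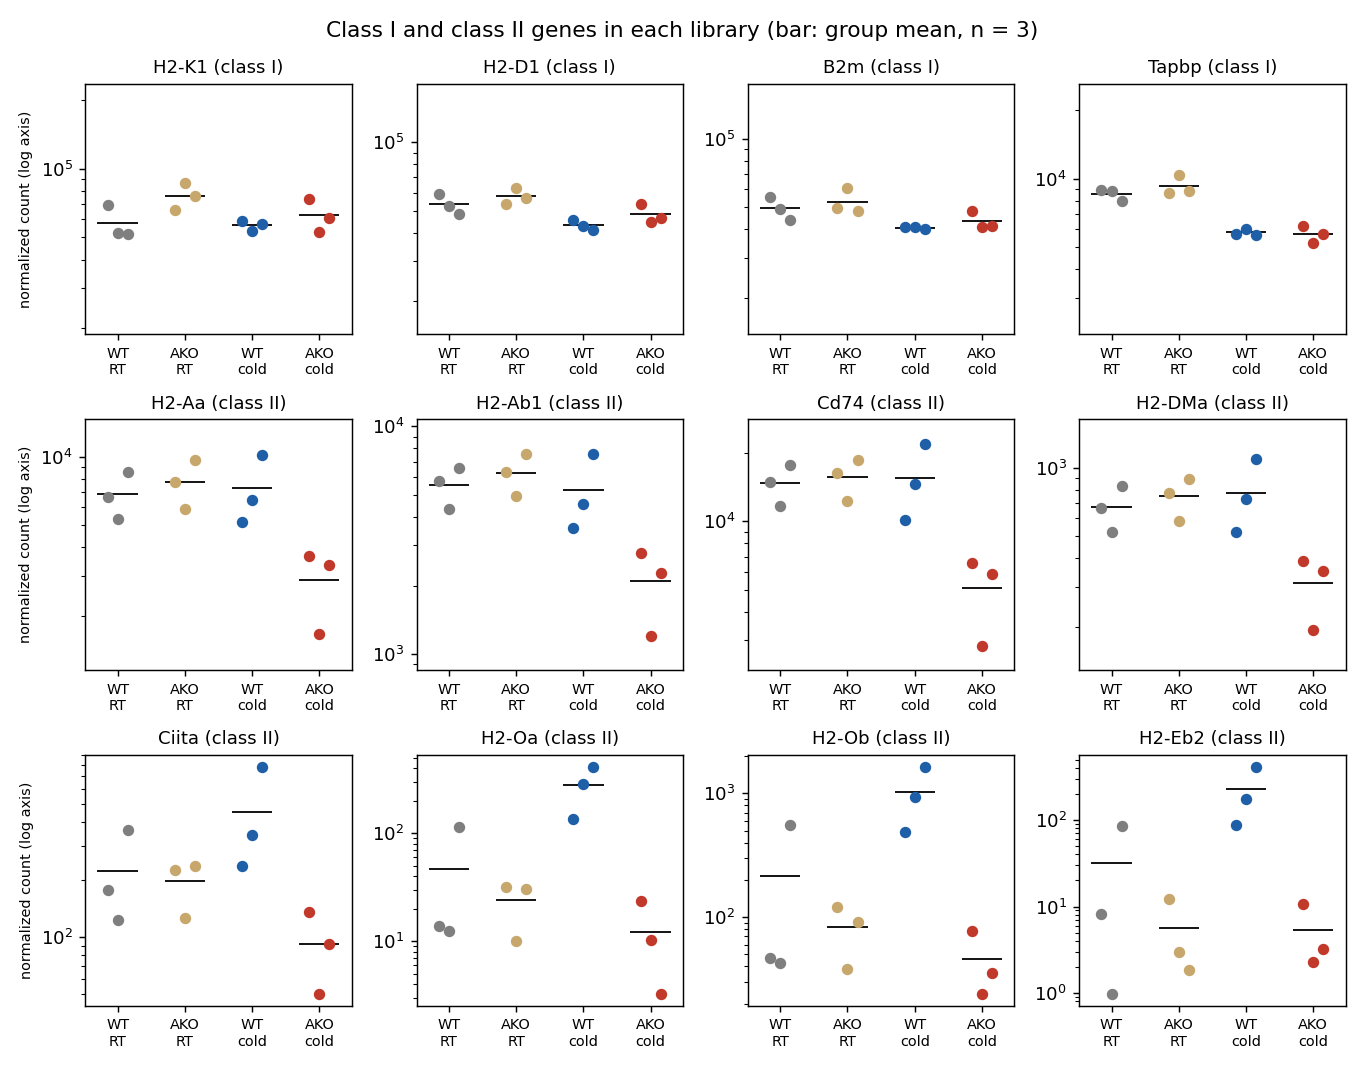
Normalized counts (vertical log axes) of 4 class I and 8 class II genes in each of the 12 libraries, with 1 point per library and a bar at the group mean (n = 3). The Atf4AKO cold libraries are the lowest group for H2-Aa, H2-Ab1, Cd74, H2-DMa and Ciita, and the Atf4WT cold libraries are the highest group for H2-Oa, H2-Ob and H2-Eb2, while H2-K1, H2-D1 and B2m stay within a narrow band.

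Few class I genes were called after cold. H2-K1, a classical heavy chain, read 59092, 53441 and 57359.6 in Atf4WT and 73971, 52764 and 60811 in Atf4AKO iWAT after cold, a log2 difference of 0.13 with a 95% interval from -0.25 to 0.51. H2-D1 read 45675, 42981 and 41068 against 53492, 44756 and 46513, a difference of 0.16 (95% interval -0.12 to 0.43). B2m, the light chain, differed by 0.10 (95% interval -0.19 to 0.39). For these 3 genes the upper end of the range allowed is a rise of less than 1.5-fold and the lower end a fall of less than 1.5-fold.

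The transporters and loading factors of class I were also not called after cold. Tap1 differed by -0.30 (95% interval -0.66 to 0.07), Tap2 by -0.04 (-0.30 to 0.23), Tapbp by -0.03 (-0.23 to 0.17) and Erap1 by 0.05 (-0.11 to 0.22) on the log2 scale. Nlrc5, the class I activator, differed by -0.07 (95% interval -0.50 to 0.37), beside the fall of the class II activator Ciita by 2.22. Called lower were 2 class I genes, both nonclassical. H2-M3, which presents formylated peptides, read 327, 381 and 530.2 against 299, 156 and 239 (log2 -0.85 ± 0.23, adjusted p = 0.122). H2-T24 read 158, 179 and 368 against 135, 121 and 155 (log2 -0.68 ± 0.29), and its call was lost in 5 of 16 alternative settings, including the omission of Atf4WT cold replicate 2, which gave -0.30. Omission of Atf4AKO cold replicate 0 or 1 gave -0.67 or -0.59, neither of them called. The other called gene was H2-T-ps, at 26.7, 60.2 and 81.9 against 23.4, 7.94 and 23.6 (log2 -1.57 ± 0.47), while H2-Ke6 differed by 0.08.

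None of the 31 genes had an adjusted p-value under 0.05 in this comparison by limma, with 13 under 0.05 before adjustment. By edgeR's quasi-likelihood test on the recovered reads the adjusted count was also 0, again with 13 before adjustment, and by DESeq2's Wald test it was 12, the 10 class II genes, H2-M3 and H2-T-ps. The 10 class II calls and that of H2-M3 were kept in all 16 alternative settings under the same call rule, which included the omission of each of the 6 cold libraries in turn and of Atf4WT RT replicate 2 and Atf4AKO cold replicate 1 together. Without Atf4WT cold replicate 0 or 1 the number of genes called stayed at 13, and the class II median was -1.75 or -1.52. In bulk tissue, fewer cells of a type and less RNA per cell cannot be told apart.

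At RT none of the 31 genes was called between the genotypes, against 0.283% of all tested genes lower and 0.179% higher in Atf4AKO, and limma gave 0 adjusted p-values under 0.05 with 1 before adjustment. The adjusted count was 0 by edgeR and DESeq2 too, with 1 and 2 genes under 0.05 before adjustment. The one gene was H2-K1, which read 69322, 52082 and 51621 in Atf4WT and 66231, 86393 and 75792 in Atf4AKO iWAT, a log2 difference of 0.41 ± 0.17 that stayed under the fold threshold. H2-Aa read 6681, 5307 and 8595 against 7744, 5920.4 and 9665, and the Atf4AKO range covered most of the Atf4WT range. The median log2 difference was 0.11 over class II, 0.09 over class I and 0.01 over all tested genes. H2-Eb2 had the widest interval, with a difference of -1.14 (95% interval -3.73 to 1.45). It was called lower by DESeq2, and by limma once Atf4WT RT replicate 1 was left out.

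In Atf4WT iWAT, 3 of the 31 genes were called after cold exposure, none of them a main class II chain. The called genes were H2-Oa, H2-Ob and H2-Eb2, all higher, against 10.9% of all tested genes called higher and 10.3% lower. This count is near the share called higher over all tested genes. H2-Oa went from 13.8, 12.5 and 114 at RT to 135, 287 and 412 after cold (log2 3.15 ± 0.88, adjusted p = 0.0192). H2-Ob went from 46.9, 42.3 and 551 to 488, 926 and 1641 (log2 3.11 ± 0.89, adjusted p = 0.0218). H2-Eb2 went from 8.27, 0.962 and 86.2 to 88.3, 176 and 414 (log2 4.01 ± 1.18, adjusted p = 0.0241). These adjusted p-values are from limma. By edgeR they were 0.0441, 0.0838 and 0.0687 for H2-Oa, H2-Ob and H2-Eb2, and by DESeq2 0.00730, 0.0595 and 0.0271, so H2-Ob passed by limma alone and H2-Eb2 not by edgeR. For each of these genes Atf4WT RT replicate 2 was several times higher than the other RT libraries, and for H2-Ob it overlapped the cold libraries. Without that library the log2 differences were 4.16 for H2-Oa, 4.31 for H2-Ob and 5.46 for H2-Eb2, and the number of genes called went from 3 to 6 with the addition of H2-Q6, Tapbp and Ciita.

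The main class II chains were not called in Atf4WT iWAT, where the cold libraries spread widely. The log2 difference between cold and RT was 0.05 for H2-Aa (95% interval -0.67 to 0.78), -0.14 for H2-Ab1, -0.05 for H2-Eb1, 0.03 for Cd74, 0.17 for H2-DMa and 0.12 for H2-DMb1. Atf4WT cold replicate 2 had the highest value of the 3 in each of these genes. Ciita went from 177, 122 and 363 to 235, 345 and 785 (log2 1.00 ± 0.52, 95% interval -0.14 to 2.15), and the groups overlapped. It was called higher by DESeq2, with the replicate block, and without Atf4WT RT replicate 2, alone or together with Atf4AKO cold replicate 1, or Atf4WT cold replicate 0. In the last case 5 genes were called in all. In class I, Tapbp differed by -0.56 ± 0.09 (adjusted p = 0.00137) and Erap1 by -0.50 ± 0.07 (adjusted p = 0.000834), both under the fold threshold. By limma they were the 2 genes lower at an adjusted p-value under 0.05, as were 14.9% of all tested genes. H2-D1 also passed adjustment by edgeR and DESeq2, and B2m by DESeq2 alone. Both were lower after cold, with limma log2 differences of -0.30 for H2-D1 and -0.28 for B2m, under the fold threshold.

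In Atf4AKO iWAT, the main class II chains were lower after cold exposure than at RT. Of the 31 genes, 8 were called lower and 1 higher, against 8.92% of all tested genes called lower and 8.30% higher. The 6 class II genes among them, by adjusted limma p-value, were H2-Eb1 (log2 -1.55 ± 0.27, adjusted p = 0.00232), Cd74 (-1.69 ± 0.34, 0.00473), H2-Ab1 (-1.65 ± 0.33, 0.00473), H2-Aa (-1.48 ± 0.33, 0.00783), H2-DMa (-1.31 ± 0.32, 0.0119) and H2-DMb1 (-1.33 ± 0.35, 0.0178). H2-Aa went from 7744, 5920.4 and 9665 at RT to 3651, 1661 and 3349 after cold, and Cd74 from 16240.2, 12279 and 18539 to 6561, 2841 and 5895. In all 6 genes every cold library lay below every RT library. Ciita went from 226, 125 and 237 to 135, 49.9 and 91.3 (log2 -1.14 ± 0.52, 95% interval -2.28 to 0.01), which did not pass the test. It was called lower by DESeq2, with the replicate block, with the 2 groups fitted alone, and without Atf4AKO RT replicate 1 or Atf4AKO cold replicate 0. H2-Oa, H2-Ob and H2-Eb2 were low at both temperatures and were not called, with differences of -1.10, -0.87 and 0.04.

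Of the 19 class I genes, 2 were called lower and 1 higher by cold in Atf4AKO iWAT, near the shares over all tested genes given above. H2-M3 fell by 0.83 and Tapbp by 0.70 on the log2 scale (adjusted p = 0.0241 and 0.000499). H2-M9 rose, from 63.2, 83.6 and 78.9 to 111, 107 and 288 (log2 1.00 ± 0.35), with replicate 2 far above the others, and without it the value was 0.53 and was no longer called. It was 0.88 and not called without Atf4AKO RT replicate 0. H2-M3 gave -0.58 without Atf4AKO cold replicate 1 and was then under the fold threshold. After adjustment, 11 genes had a limma p-value under 0.05, all of them lower, against 11.0% of all tested genes. By edgeR 12 genes and by DESeq2 13 genes passed adjustment, H2-M9 among them. Beside the 8 genes called lower, the 11 genes by limma were Erap1 (-0.54), Tap1 (-0.54) and H2-T23 (-0.56), the last a nonclassical heavy chain. When the libraries were scaled to the same 75th percentile, Ciita and these 3 genes were called as well. The median log2 difference was -1.32 over class II, -0.27 over class I and -0.03 over all tested genes. Each Atf4WT cold and Atf4AKO cold library enters both a cold and a genotype comparison, so the comparisons above are not independent of one another.

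The cold response itself differed between the genotypes in 12 of the 31 genes before adjustment, all lower in Atf4AKO, and in 0 higher. Over all tested genes, 4.17% were called lower and 0.463% higher by this difference of differences. All 10 class II genes were among them, with a median of -1.62 and a range from -4.25 (H2-Oa) to -1.45 (H2-DMb1), and the others were H2-M3 and H2-T-ps. For Cd74 the difference was -1.72 ± 0.48 and for H2-Eb1 -1.50 ± 0.38. None passed adjustment by limma, where the adjusted p-values of the 12 genes ran from 0.474 to 0.716 and 13 genes were under 0.05 before adjustment. None passed by edgeR, with 12 before adjustment, and 2 passed by DESeq2, Cd74 and H2-Eb1, with 13 before adjustment. The class I median was -0.18. H2-K1 gave -0.28 (95% interval -0.81 to 0.26) and B2m 0.01 (-0.41 to 0.42). H2-Eb2 lost the call in 9 settings (values -4.01 to -2.68), namely by edgeR, by DESeq2 and without replicate 0 or 1 of Atf4WT RT, 0 of Atf4AKO RT, 1 or 2 of Atf4WT cold or 1 or 2 of Atf4AKO cold. H2-T-ps lost it in 9 (-1.53 to -0.998), without replicate 0 or 1 of Atf4WT RT, any of Atf4AKO RT, 1 or 2 of Atf4WT cold, 1 of Atf4AKO cold or Atf4WT RT replicate 2 and Atf4AKO cold replicate 1 together. H2-M3 lost it in 3 (-0.74 to -0.60), without replicate 1 of Atf4WT RT, 2 of Atf4WT cold or 1 of Atf4AKO cold.

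**Figure D2:**
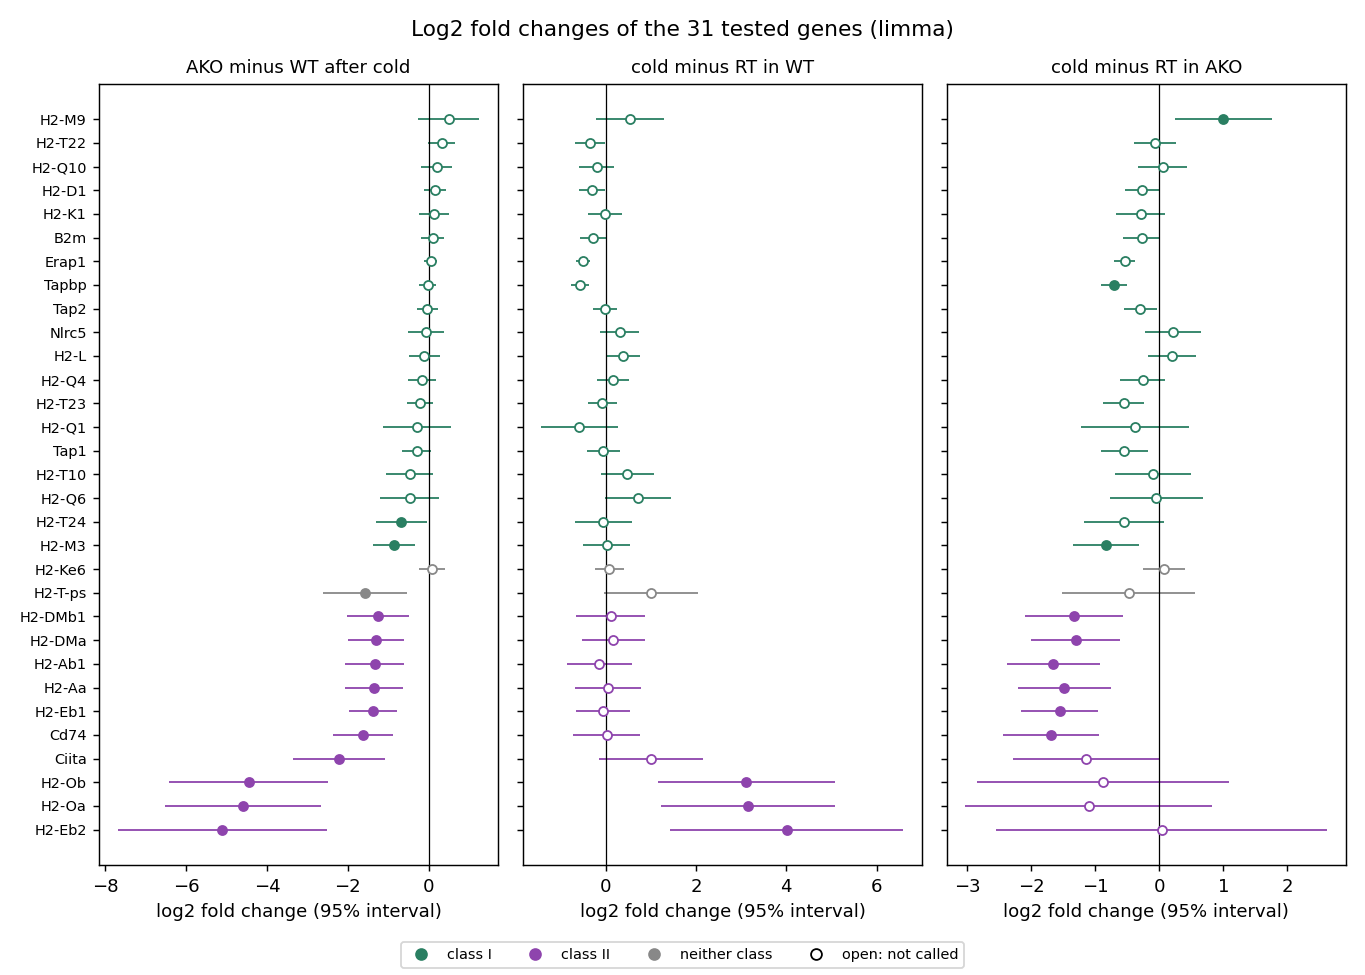
Log2 fold changes (horizontal axes, points) with 95% intervals (lines) of the 31 tested genes from limma, for Atf4AKO against Atf4WT after cold and for cold against RT in each genotype; filled points were called. All 10 class II genes lie left of zero after cold (-5.11 to -1.24), 3 called class II genes lie right of it for cold in Atf4WT, and most class I genes lie near it in all panels.

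The class II share of MHC counts was lowest in Atf4AKO iWAT after cold. Class II genes made up 13.4, 12.4 and 18.5% of the summed class I and class II normalized counts in the Atf4WT RT libraries, 15.4, 10.4 and 16.6% in Atf4AKO RT, 12.1, 16.1 and 23.0% in Atf4WT cold, and 7.24, 4.22 and 7.38% in Atf4AKO cold. The Atf4AKO cold libraries were thus the lowest 3 of the 12. The group means were 14.8 ± 3.29% (SD, n = 3), 14.1 ± 3.33%, 17.1 ± 5.48% and 6.28 ± 1.79%. Summed class I counts ranged from 182597 to 223724 in Atf4WT RT, from 206689 to 254240.1 in Atf4AKO RT, from 174218 to 178029 in Atf4WT cold and from 170399 to 213122 in Atf4AKO cold. Every Atf4WT cold library thus lay below every Atf4WT RT library in class I, which enters the class II share. Summed class II counts ranged from 24598 to 52218 in the other 9 libraries and from 7509 to 16646 in Atf4AKO cold. These sums follow the abundant genes, Cd74, H2-Aa, H2-Ab1 and H2-Eb1 for class II and B2m, H2-K1 and H2-D1 for class I. Weighting genes equally, the mean log2 value of class II minus that of class I was -1.56 ± 0.84 in Atf4WT RT, -1.76 ± 0.51 in Atf4AKO RT, -0.40 ± 0.54 in Atf4WT cold and -2.74 ± 0.47 in Atf4AKO cold. No test was made on these scores.

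**Figure D3:**
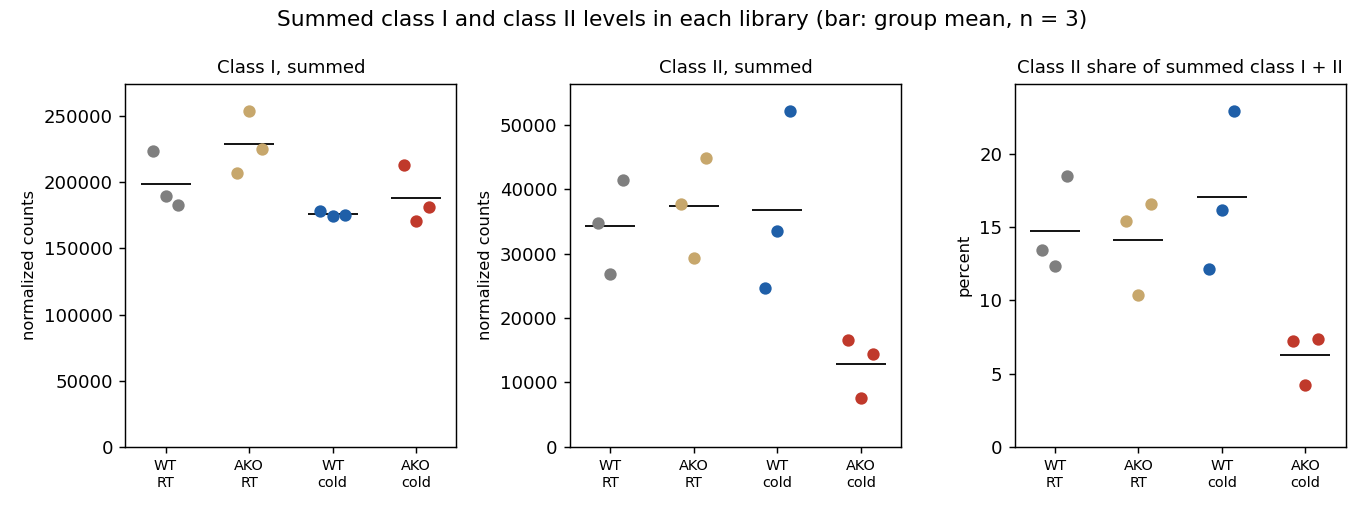
Summed normalized counts of class I and of class II and the class II percentage of their total (vertical axes from 0), with 1 point per library and a bar at the group mean (n = 3). Class II takes 4.22 to 7.38% in the Atf4AKO cold libraries and 10.4 to 23.0% in the others, while class I overlaps between genotypes after cold.

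Markers of lymphocytes moved with H2-Oa, H2-Ob and H2-Eb2, and only in part with the other class II genes. After cold, 13 of 13 tested B cell markers were lower in Atf4AKO than in Atf4WT iWAT (median log2 difference -5.70), as were 16 of 16 T cell markers (-3.65) and 4 of 4 lymph node stroma markers (-1.99). Of all tested genes, 6.04% were called lower. In Atf4WT iWAT 13 of 13 B cell markers (median 4.45) and 15 of 16 T cell markers (3.36) were called higher after cold than at RT, against 10.9% of all tested genes. The 7 class II genes other than H2-Oa, H2-Ob and H2-Eb2 had a median of 0.05 there, with 0 called. Cd79a, part of the B cell receptor, read 23.0, 13.5 and 772 in Atf4WT RT, 75.3, 17.9 and 48.2 in Atf4AKO RT, 723, 1792 and 2667 in Atf4WT cold and 55.3, 20.4 and 14.0 in Atf4AKO cold. Cd37, the most abundant marker of the list, read 945, 1269.8 and 2375 in Atf4WT cold and 459, 93.0 and 337 in Atf4AKO cold. The high libraries of Cd79a, the 3 of Atf4WT cold and replicate 2 of Atf4WT RT, were also the high libraries of H2-Oa, H2-Ob and H2-Eb2. Summed over the list, B cell markers ranged from 5415 to 18088 in Atf4WT cold, from 188 to 868 in Atf4AKO cold, from 481 to 5463 in Atf4WT RT and from 421 to 1211 in Atf4AKO RT. The highest Atf4WT RT sum, that of replicate 2, lay above the lowest Atf4WT cold sum, that of replicate 0. Summed T cell markers ranged from 1338 to 10423.0 in Atf4WT cold and from 300.4 to 689 in Atf4AKO cold. The table listed 13 of 16 B cell, 16 of 17 T cell, 11 of 12 dendritic cell and 14 of 15 macrophage markers. Of the lymph node stroma markers it listed only 4 of 9, so most of that list could not be followed. None of the listed markers was at 0 in any library, because the table holds only genes with at least 1 read in each library. The part of these cell types in the class II differences was not tested. Nor was it tested whether tissue of the inguinal lymph node entered some libraries, and its removal at dissection is not given in the sources used here.

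Fewer macrophage markers were called. Of 14 macrophage markers tested, 1 was lower in Atf4AKO iWAT after cold (Timd4, log2 -2.99 ± 0.78), and the list median was -0.19. This count is near the share over all tested genes, of which 6.04% were called lower. The most abundant, Lyz2, read 14549.8, 8176 and 19377 in Atf4WT and 14647, 1985 and 11173 in Atf4AKO and was not called. Summed macrophage markers ranged from 16373 to 40851 in Atf4WT cold and from 7096 to 36733 in Atf4AKO cold, and the lowest value of each group was that of replicate 1. Within Atf4AKO cold, that library also held the lowest value of every class II gene except H2-Oa.

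After cold, 5 of 11 dendritic cell markers were lower in Atf4AKO (Flt3, Ccr7, Siglech, Fscn1 and Ccl22), against 6.04% of all tested genes, with a list median of -1.02. Ccr7, the homing receptor of migrating dendritic cells and naive T cells, read 111, 882 and 1002 against 28.7, 2.27 and 17.2. Zbtb46 and Clec9a, markers of conventional dendritic cells, gave -0.12 ± 0.15 and -0.41 ± 0.33 and were not called. Summed dendritic cell markers ranged from 1871 to 5762 in Atf4WT cold and from 1300.4 to 2205 in Atf4AKO cold, ranges that overlap. No marker of adipocytes (12 tested), endothelium (9), fibroblasts and progenitors (10) or epithelium (2) was called between the genotypes after cold. Between RT and cold, 7 of 10 fibroblast and progenitor markers were lower in Atf4WT and 7 of 10 in Atf4AKO, against 10.3% and 8.92% of all tested genes.

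**Figure D4:**
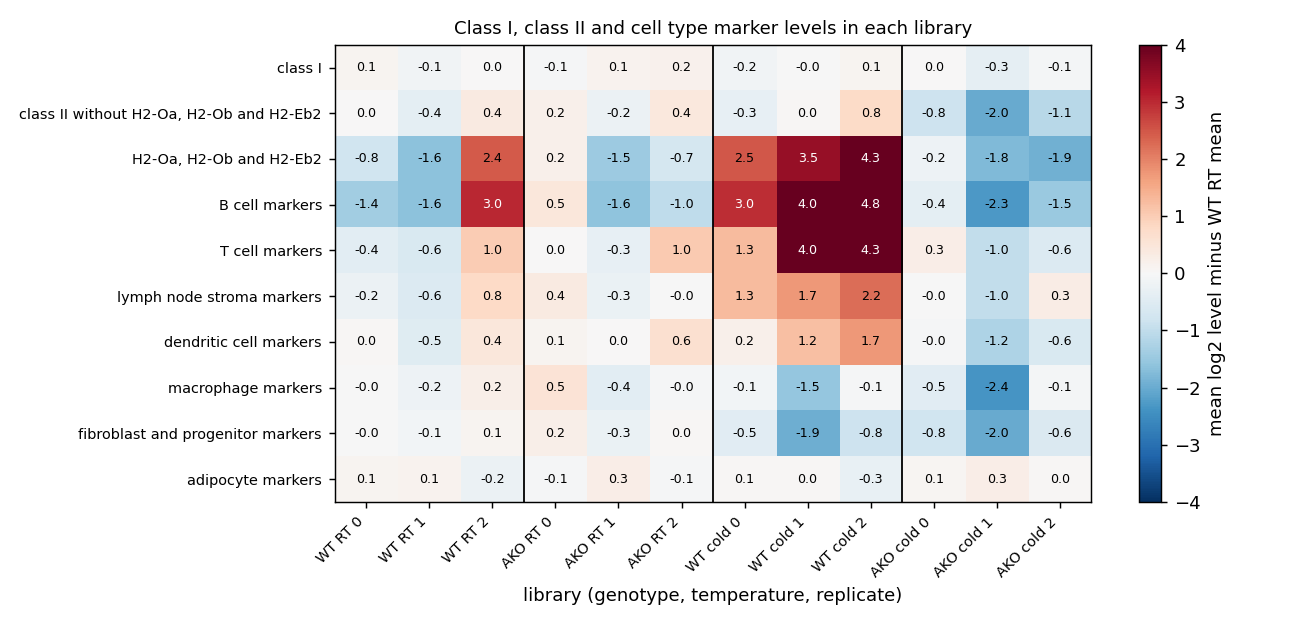
Mean log2 value of each gene set (rows) in each of the 12 libraries (columns, by genotype, temperature and replicate number) minus the Atf4WT RT mean, as colour and printed value. H2-Oa, H2-Ob and H2-Eb2 are high in the libraries where B cell markers are high (2.5 to 4.3 against 3.0 to 4.8 in Atf4WT cold), class II without them is lowest in Atf4AKO cold (-2.0 to -0.8), and class I stays between -0.3 and 0.2.

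The 7 class II genes other than H2-Oa, H2-Ob and H2-Eb2 had their lowest levels in Atf4AKO cold. Their mean log2 value was 11.07 ± 0.37 (SD, n = 3) in Atf4WT RT, 11.19 ± 0.34 in Atf4AKO RT, 11.24 ± 0.56 in Atf4WT cold and 9.74 ± 0.62 in Atf4AKO cold. B cell markers, in the same order of groups, averaged 5.45 ± 2.62, 4.73 ± 1.06, 9.36 ± 0.90 and 4.06 ± 0.95. Between RT and cold in Atf4AKO iWAT, where 6 of these 7 genes fell, 1 of 13 B cell markers was lower (Bank1, list median -0.60), as were 1 of 16 T cell markers (Cd247, -0.73), 3 of 11 dendritic cell markers (Cd209a, Siglech and Fscn1, -0.75) and 2 of 14 macrophage markers (Timd4 and Cd14, -1.05). Over all tested genes 8.92% were called lower by cold in Atf4AKO, and the B and T cell counts lie near that share. Without Atf4WT RT replicate 2 and Atf4AKO cold replicate 1 together, 12 genes were called lower in Atf4AKO after cold, 8 were called between cold and RT in Atf4WT, and H2-Oa, H2-Ob and H2-Eb2 kept their calls in both comparisons.

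Other genes of the presentation pathways were followed by list. The catalytic subunits of the immunoproteasome and its activator (Psmb8, Psmb9, Psmb10, Psme1 and Psme2) gave 0 of 5 called between genotypes after cold, with a median of -0.08. Peptide loading partners gave 0 of 9 (median 0.07). Of 9 class II processing genes 1 was lower, against 6.04% of all tested genes. It was the thiol reductase Ifi30, at 863, 1081 and 1921 against 787, 397 and 732 (log2 -0.99 ± 0.30). Cathepsin S (Ctss), which cuts the invariant chain, gave -0.94 ± 0.71 and was not called. Of 15 transcription regulators of MHC genes 0 were called, with Rfx5, part of the X box complex, at -0.48 ± 0.14 and Irf1 at -0.36 ± 0.16. Interferon gamma (Ifng) fell under the filter.

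Of the costimulatory molecules and receptors, 8 of 12 were lower in Atf4AKO after cold, against 6.04% of all tested genes, with a median of -1.52. Cd40, a receptor of antigen-presenting cells, read 127, 226 and 339 against 62.7, 23.8 and 72.0 (log2 -2.14 ± 0.49). Cd86, the ligand of Cd28, read 219.8, 191 and 381 against 137, 56.7 and 203 (log2 -1.11 ± 0.41), and Icosl differed by -1.71 ± 0.35. The T cell coreceptors were lower too, with Cd4, which binds class II, at -3.75 ± 0.64 and Cd8a, which binds class I, at -4.87 ± 1.14. Cd48, Cd8b1 and Klrd1 were the others. Cd4, Cd8a and Cd8b1 are also T cell markers and are counted in both lists.

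Members of these lists also responded to cold. In Atf4AKO iWAT Psmb9 fell by 0.80, Ctsh by 1.27 and Ifngr1 by 0.67, and Nfyc, a subunit of the factor that binds the Y box, rose by 0.95. In Atf4WT iWAT Nfyc rose by 0.86, Rfxank by 0.62, and Ifngr1 fell by 0.80, Mr1 by 0.77 and Marchf8, a ligase that removes class II from the surface, by 0.76. In Atf4WT iWAT 7 of the 12 costimulation and receptor genes rose (Cd40, Icosl, Cd4, Cd8a, Cd8b1, Klrd1 and Klrk1), against 10.9% of all tested genes.

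The class II genes of chromosome 17 share their stretch with genes that were not called between genotypes. Between positions 34092379 and 34341410 (GRCm38.p6), 3 genes outside the 35 were tested, Psmb9 and Psmb8 of the immunoproteasome list and Brd2. After cold their differences between genotypes ran from -0.13 to 0.01 on the log2 scale and none was called, though Psmb9 fell with cold in Atf4AKO as given above. The class II genes within this stretch differed by -1.24 to -5.11, and Cd74 and Ciita, which lie on other chromosomes, by -1.63 and -2.22.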

How the data were processed

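Polyadenylated RNA of whole iWAT was sequenced in 12 libraries, 3 in each of 4 groups, which were taken from the sample labels. The values the authors deposited are a normalized signal, read counts per gene scaled by each library's size factor. Per the methods and the submitters' processing notes, reads were filtered with SOAPnuke, mapped to mm10 with STAR, counted with featureCounts as uniquely mapped reads and normalized with DESeq2 size factors, with no versions given. The kit is strand-specific, but the strand setting of the counting is not given in the sources used here, so overlapping antisense genes may share reads. Dividing by the smallest value of a library gave whole reads, within 0.000313 reads, and 0 columns of values were left out. Replicate pairs differed by more than counting noise (chi-square per degree of freedom 34.5 to 69.8).

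The 13404 of 14159 genes whose mean reached 10 normalized counts were tested with limma 3.58.1 (R 4.3.3, eBayes with trend) after taking log2(normalized count + 1), with 4 group means and no covariates. Fold changes are on that scale. A gene was called at a fold change over 1.5 with p under 0.05 unadjusted, as in the study. Adjusted p-values (Benjamini-Hochberg) cover all tested genes. The recovered reads were tested with edgeR 4.0.16 and DESeq2 1.42.0 as alternatives. The scripts were tested on simulated data with changed genes. Every gene of the selection is named or counted, and of the other lists the called genes, the most abundant marker and a few genes of known role chosen after their values were seen. The genes and lists were chosen with earlier results of these data known.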

Additional observations from a re-analysis of the deposited data

Results flagged for a closer look

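The cold response (cold minus RT) differed between Atf4AKO and Atf4WT iWAT in 12 of the 31 tested genes, by limma's test of the difference itself before adjustment. The log2 difference between the responses was -4.25 for H2-Oa, -3.99 for H2-Ob and -3.97 for H2-Eb2, which rose with cold in Atf4WT and were not called in Atf4AKO. It was -2.14 for Ciita, -1.72 for Cd74, -1.53 for H2-Aa, -1.51 for H2-Ab1, -1.50 for H2-Eb1, -1.48 for H2-DMa and -1.45 for H2-DMb1. Outside class II it was -1.48 for H2-T-ps and -0.86 for H2-M3. The adjusted limma p-values of the 12 ran from 0.474 to 0.716, so none passed the correction. The B cell marker list gave 13 of 13 lower by the same difference (median -4.90) and the T cell list 16 of 16 (-3.80), and their part in these values was not tested.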

How the results depend on the processing

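Results were recomputed with pseudocounts of 0.5 and 5, without a filter, with a filter at 50, scaling to the 75th percentile, a fit of only the groups compared, the replicate block, edgeR, DESeq2, adjusted p-values and the omission of each library. The omission of Atf4WT RT replicate 2 and Atf4AKO cold replicate 1 together was chosen after seeing the data. Over the 5 comparisons, 37 calls, with the call rule unchanged, gave 650 recomputed values, of which 620 kept the call, 30 lost it and 0 reversed, and 31 of the 37 were kept throughout. With adjusted p-values, 0 genes were called in Atf4AKO against Atf4WT after cold and 0 by the difference between cold responses, and 5 by cold in Atf4WT. Cold in Atf4WT called 6 genes with the replicate block, 6 with DESeq2 and 8 without that pair. At RT, DESeq2 called 1 gene (H2-Eb2). Leaving out 1 library gave 12 to 14 genes after cold, 0 to 1 at RT, 3 to 6 for cold in Atf4WT, 8 to 11 for cold in Atf4AKO and 9 to 15 for the difference between cold responses. The median over class II after cold then ran from -1.75 to -1.18, that over class II at RT from -0.05 to 0.34 and that over class I for cold in Atf4WT from -0.17 to 0.0895, positive without Atf4WT cold replicate 0. The causes of these changes were not tested. The labels do not say whether libraries with the same replicate number belong together, and their correlations do not settle it. Correlations of same-numbered libraries ran from -0.19 to 0.39, with 9 of 18 over 0.1, and in 17 of 36 cases a library correlated best with its own number in another group. Apart from the count for cold in Atf4WT given above, the replicate block moved no count of called genes by more than 1.5 times. Scaling to the 75th percentile moved the median of all genes by -0.06 to -0.01. At RT the share of called genes that were higher in Atf4AKO was 38.7% by limma, 16.7% by edgeR and 23.8% by DESeq2. With 3 libraries per group and few reads of H2-Oa, H2-Ob and H2-Eb2 in single libraries, the size of their changes is poorly determined.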
